A study of Mus musculus with 30 samples.

Results

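Peaks of acetylation at lysine 27 and at lysine 56 of histone H3 (H3K27ac and H3K56ac) were compared within the same diseased tissue, Crebbp-null lymphoproliferative disease (LPD) of the mouse. The comparison rests on 4 peak lists, 2 per mark, of the 15 peak lists analysed and of 30 samples in all. The LPD samples were C57BL/6 tissue of genotype CBPfl/fl:Mx-Cre+, in which Cre removes Crebbp, the gene of the acetyltransferase CBP. Mx-Cre is an inducible transgene that acts in many tissues and is not restricted to B cells. The tissue was taken in bulk and not sorted, so that fewer cells of a type and less acetylation per cell cannot be told apart. Wild-type B cells, used where stated, were B220+ cells of genotype CBPfl/fl:Mx-Cre-. The antibodies were ab4729 for H3K27ac and ab76307 for H3K56ac. Nothing in the labels ties libraries to animals, either across the 2 marks or between replicates of a mark, so p-values here measure only the spread between libraries.

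H3K27ac is deposited mainly by CBP and its relative p300 and marks active promoters and enhancers. H3K56 lies in the globular core of H3 near the entry of the DNA into the nucleosome, and its acetylation is known for its role in nucleosome assembly and DNA repair, as well as for a presence at active genes. In mammals CBP and p300 have been reported to acetylate H3K56 as well, and H3K18ac is another CBP and p300 product.

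The peaks of the 4 LPD lists merged into 34829 regions. A region was called H3K27ac-only when both H3K27ac lists and neither H3K56ac list had a peak overlapping it by at least 1 bp, H3K56ac-only in the reverse case, and shared when all 4 lists had it. There were 2155 H3K27ac-only regions, 759 H3K56ac-only regions and 17234 shared regions, which is 6.19, 2.18 and 49.5% of all regions. The remaining 14681 regions had some other pattern, and 6757 of these were in H3K27ac replicate 1 alone. That list stood apart from the other 3: it covered 26.2 Mb, against 18.2 Mb in H3K27ac replicate 2, and 17.04 and 18.3 Mb in the H3K56ac lists. Without it the rule gave 3690 H3K27ac-only and 2425 H3K56ac-only regions, and without H3K27ac replicate 2 it gave 9068 H3K27ac-only regions.

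The tissue carried the chromatin of B cells in every list. All 7 B cell markers had a peak in each of the 4 lists, among them Cd79a, Ms4a1 and Pax5, and their summed covered length was 70.2 and 47.7 kb in the H3K27ac lists and 34.1 and 35.4 kb in the H3K56ac lists. Of 7 defining T and NK cell markers, 2 had a peak in each list, with summed lengths of 4.23 and 3.01 kb for H3K27ac and 3.51 and 4.11 kb for H3K56ac, and Cd3e, Cd3g, Thy1, Bcl11b and Ncr1 were at 0. Of 7 defining myeloid markers, only Itgam had a peak, at 0.251 and 0 kb for H3K27ac and 0.426 and 0 kb for H3K56ac. Of 6 defining erythroid markers, 3 and 2 had a peak in the H3K27ac lists and 2 in each H3K56ac list. Their summed length was 3.24 and 1.23 kb for H3K27ac and 1.23 and 1.25 kb for H3K56ac, with Gata1 and the globin genes Hbb-bt and Hba-a1 at 0. In the longer lists, 6 of 23 T and NK genes, 4 of 17 myeloid genes and 9 of 15 erythroid and megakaryocyte genes had a peak in any of the 4 lists.

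The promoters below are examples from each class, and the printed bases overlap a region of the class in each case. Each line gives the 150 bases before a gene's first annotated start in RefSeq (GRCm38.p6, the same assembly as mm10), 5′ to 3′ on the gene's strand. Capitals mark the letters TGACGTCA (the full cAMP response element), TGACGT (the shorter form of it), CCAAT (the CCAAT box), TATAAA (the TATA box) and GGGCGG (the GC box), each searched on both strands, and TGACGTCA contains TGACGT. The first 4 are among those with the widest H3K56ac-only regions over the promoter window, which runs 250 bases before to 50 after the start: Card10, a CARD scaffold upstream of Bcl10; Fkbp1b, an FK506-binding protein; Kdelr3, which returns proteins to the endoplasmic reticulum; and Gipc3, a PDZ protein needed for hearing.
Card10, chr15:78803043-78803192, minus strand: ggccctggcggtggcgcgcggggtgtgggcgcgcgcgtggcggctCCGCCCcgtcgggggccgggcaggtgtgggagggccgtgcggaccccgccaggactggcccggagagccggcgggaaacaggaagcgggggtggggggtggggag
Fkbp1b, chr12:4841574-4841723, minus strand: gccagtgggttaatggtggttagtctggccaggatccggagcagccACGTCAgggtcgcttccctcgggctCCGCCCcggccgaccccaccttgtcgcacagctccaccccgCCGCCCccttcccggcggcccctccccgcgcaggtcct
Kdelr3, chr15:79516258-79516407, plus strand: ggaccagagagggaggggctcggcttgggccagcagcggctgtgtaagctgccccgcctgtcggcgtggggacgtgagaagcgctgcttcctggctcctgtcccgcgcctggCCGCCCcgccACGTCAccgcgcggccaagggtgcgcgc
Gipc3, chr10:81343360-81343509, minus strand: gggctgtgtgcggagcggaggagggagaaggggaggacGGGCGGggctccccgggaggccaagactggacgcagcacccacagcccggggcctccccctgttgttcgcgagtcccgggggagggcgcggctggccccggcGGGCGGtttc
The next 3 lie at H3K27ac-only regions. Il4i1 encodes an interleukin-4-induced L-amino acid oxidase, Fcer2a the low-affinity IgE receptor CD23 of mature B cells, and Trim58 a ubiquitin ligase of erythroid cells.
Il4i1, chr7:44836138-44836287, plus strand: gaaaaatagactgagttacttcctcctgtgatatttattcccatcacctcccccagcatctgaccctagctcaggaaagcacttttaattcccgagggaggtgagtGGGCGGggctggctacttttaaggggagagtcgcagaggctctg
Fcer2a, chr8:3694175-3694324, minus strand: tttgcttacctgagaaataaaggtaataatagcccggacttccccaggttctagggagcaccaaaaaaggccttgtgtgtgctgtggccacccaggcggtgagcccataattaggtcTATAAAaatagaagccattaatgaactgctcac
Trim58, chr11:58640315-58640464, plus strand: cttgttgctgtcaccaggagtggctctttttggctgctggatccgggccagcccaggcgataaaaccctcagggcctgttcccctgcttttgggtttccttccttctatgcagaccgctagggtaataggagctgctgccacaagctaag
The last, H2-Aa, encodes the alpha chain of a class II histocompatibility molecule and lies in the widest shared region.
H2-Aa, chr17:34287824-34287973, minus strand: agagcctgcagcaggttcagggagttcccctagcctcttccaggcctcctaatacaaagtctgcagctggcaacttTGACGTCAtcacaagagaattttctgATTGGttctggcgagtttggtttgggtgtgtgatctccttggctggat

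The 4 H3K56ac-only examples have 34, 21, 27 and 30 CpG dinucleotides in the 300 bases around the start of Card10, Fkbp1b, Kdelr3 and Gipc3, and the 2 next in width, 1810010H24Rik and Bmpr2, have 14 and 23. The H3K27ac-only examples have 3 in Il4i1, 3 in Fcer2a and 8 in Trim58, and the shared example H2-Aa also has 3. The examples are few, and the whole classes differed less. The median count was 14 in the 51 genes with an H3K27ac-only region over the promoter window, 22 in the 76 genes with an H3K56ac-only region, 23 in 6161 genes with a shared region and 5 in 10137 genes with no peak. At least 10 CpG were present in 62.7% of the H3K27ac-only promoters, 85.5% of the H3K56ac-only promoters, 91.3% of the shared promoters and 57.2% of all 17491 promoters. TATAAA was found in 4 of 51 H3K27ac-only promoters (7.84%) and 0 of 76 H3K56ac-only promoters. It was in 5.70% of shared promoters, 18.8% of promoters with no peak and 13.3% of all promoters. The full element TGACGTCA, which H2-Aa carries, was in 258 shared promoters (4.19%) and in 2.34% of all promoters. It was in 0 of 51 H3K27ac-only and 0 of 76 H3K56ac-only promoters. These classes are too small for a count of 0 to be told from 2.34%. The shorter TGACGT was in 4 of 51 H3K27ac-only promoters (7.84%), 5 of 76 H3K56ac-only promoters (6.58%), among them Fkbp1b and Kdelr3, 15.1% of shared promoters and 8.76% of all promoters. GGGCGG was in 56.9% of the H3K27ac-only, 64.5% of the H3K56ac-only, 68.5% of the shared and 46.3% of all promoters. CCAAT was in 39.2, 36.8 and 38.2% of these 3 classes and 39.0% of all promoters. A match of letters is a description of the sequence and not evidence of binding.

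H3K27ac and H3K56ac peaks were about equally many in LPD and lay largely in the same places. There were 31924 and 27581 peaks for H3K27ac and 28222 and 28934 for H3K56ac, a log2 ratio of 0.054 (exact permutation test, two-sided, p = 1) that turned to -0.051 without H3K27ac replicate 1. Covered length averaged 22.2 ± 5.60 Mb for H3K27ac and 17.7 ± 0.883 Mb for H3K56ac (SD, n = 2 each), a log2 ratio of 0.31 (exact permutation p = 0.667), and the groups overlapped. Median peak width was 543 and 477 bp for H3K27ac and 456 and 472 bp for H3K56ac, so every H3K27ac list was wider, although replicate 2 was so by only a few bases. The exact permutation p for width was 0.333, which is the smallest that 2 lists against 2 allow.

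Agreement between the marks came close to that within H3K27ac. The 2 H3K27ac lists shared 66.0% of the sequence that either covers, and the 2 H3K56ac lists shared 72.3%. Between marks, the 4 pairs of lists shared 57.4, 60.5, 65.9 and 67.2%, and the last value, for replicate 2 of each mark, exceeds that between the H3K27ac replicates. H3K27ac replicate 1 contained 92.4 and 91.7% of all sequence in the H3K56ac lists. In wild-type B cells the same comparison gave 80.7% within H3K27ac, 65.0% within H3K56ac and 32.8 to 36.4% between marks. There, H3K27ac covered 27.1 and 26.4 Mb and H3K56ac 10.6 and 9.44 Mb. The log2 ratio of H3K27ac to H3K56ac covered length was therefore 0.31 in LPD and 1.42 in B cells, a difference of -1.11 (exact permutation of cell labels within each mark, two-sided, p = 0.0556, the smallest that its 36 arrangements allow). For the log2 ratio of peak number the difference between the cells was -0.58 (the same permutation test, p = 0.167). In B cells the region rule gave 9689 H3K27ac-only, 249 H3K56ac-only and 12081 shared regions among 32644. LPD and B cells differ in genotype, disease and sorting, whose parts cannot be told apart.

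The shared regions held most of what each list covered, least so in H3K27ac replicate 1. They took 78.9 and 90.5% of the sequence in the H3K27ac lists and 91.7 and 90.1% of that in the H3K56ac lists. H3K27ac-only regions took 4.12 and 3.93% of the H3K27ac lists, and H3K56ac-only regions took 1.39 and 1.30% of the H3K56ac lists. Inside the shared regions, the H3K27ac lists covered 94.98 and 76.0% of the sequence and the H3K56ac lists 71.9 and 75.8%.

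Shared regions were wide and the single-mark regions narrow. The median width was 466 bp for H3K27ac-only regions, 361 bp for H3K56ac-only regions and 983 bp for shared regions. Part of this follows from the rule, since a shared region is a union of 4 peaks. The order of the single-mark classes turned when an H3K27ac list was left out: the medians were 269 bp for H3K27ac-only and 374 bp for H3K56ac-only regions without H3K27ac replicate 1, and 301 and 365.5 bp without H3K27ac replicate 2. Without an H3K56ac list, H3K56ac-only regions had medians of 254 and 250 bp. Widths over 1 kb were found in 129 H3K27ac-only regions, in 1 H3K56ac-only region and in 8433 shared regions. The widest H3K27ac-only region, of 2.36 kb at chr6:145855944-145858300, adjoins Bhlhe41, a transcription factor gene of the circadian clock that is also used by B-1 cells. Peaks covered 2.30 and 0.888 kb of it in the H3K27ac lists and none in the H3K56ac lists. Others among the 5 widest were in Itpr2, an inositol trisphosphate receptor gene, and in Elf4, an ETS factor gene on the X chromosome, where H3K27ac peaks covered 1.80 and 1.43 kb of a 1.80 kb region. The widest H3K56ac-only region was the 1.06 kb Card10 promoter region at chr15:78802293-78803353, where H3K56ac peaks covered 0.750 and 0.612 kb.

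The widest shared region of all covered 26.8 kb from H2-Aa to H2-Eb1 in the class II histocompatibility cluster, at chr17:34283561-34310324. Peaks covered 26.6 and 23.6 kb of it for H3K27ac and 24.3 and 25.1 kb for H3K56ac. Neither mark was the longer, since the ranges overlap. Shared regions of 15.3 kb at Mef2d, 15.2 kb at St3gal1, 14.2 kb at Ikzf1 and 13.8 kb at Nfatc1 came next. Mef2d and Nfatc1 encode transcription factors that act after antigen receptor signalling, St3gal1 a sialyltransferase and Ikzf1 the lymphoid factor Ikaros. At Mef2d the marks parted: H3K27ac peaks covered 15.2 and 14.3 kb of the region and H3K56ac peaks 10.4 and 10.3 kb.

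H3K56ac-only regions lay at gene ends more often than H3K27ac-only regions did. A gene end is either boundary of a protein-coding gene, and a region within 1 kb of it was counted. The share was 14.1% of H3K27ac-only regions (303 regions; exact binomial 95% interval 12.6 to 15.6%), 33.5% of H3K56ac-only regions (254 regions; 30.1 to 36.9%) and 53.1% of shared regions, with 35.5% over all regions. These intervals, like the others here, cover counting error only. With start sites in place of gene ends the shares were 9.65, 30.04 and 46.4%. The order held at equal width: among regions of 300 to 500 bp the gene-end share was 14.4% of 960 H3K27ac-only, 32.5% of 431 H3K56ac-only and 49.8% of 1802 shared regions. Over whole lists, 36.6 and 41.3% of H3K27ac peaks and 43.0 and 42.3% of H3K56ac peaks lay at a gene end, a difference of -3.68 percentage points whose exact permutation p was 0.333. The lists did not overlap, but the gap between H3K27ac replicate 2 and the nearer H3K56ac list was smaller than the spread between the H3K27ac replicates. In B cells the same difference was -14.96 percentage points. The LPD value minus the B cell value was 11.3 points (exact permutation of cell labels within each mark, two-sided, p = 0.167).

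**Figure D1:**
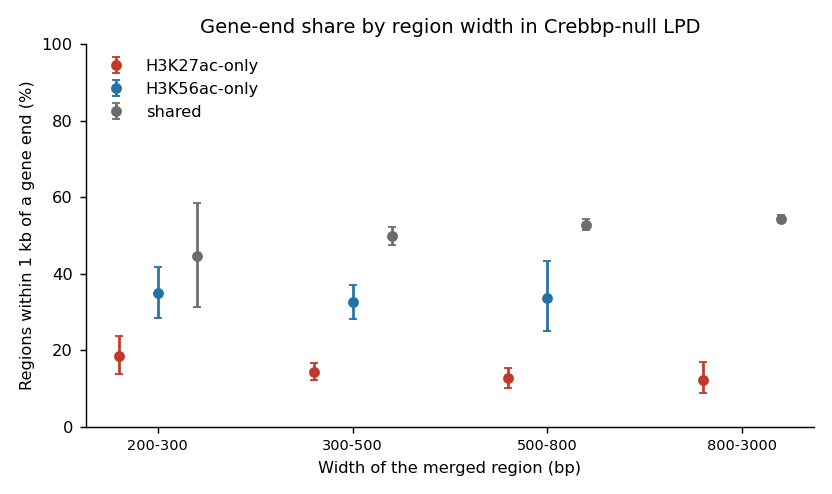
The percentage of merged LPD regions within 1 kb of a protein-coding gene end, by region width in bp up to 3000 bp, for H3K27ac-only (red), H3K56ac-only (blue) and shared regions (grey). Points are shares and bars exact binomial 95% intervals; at 300 to 500 bp the shares are 14.4, 32.5 and 49.8%, and no H3K56ac-only point is drawn above 800 bp.

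Regions near starts also differed in where they sat. Of the 273 H3K27ac-only regions centred within 2 kb of a start, 46.9% were centred upstream of it, at a median distance of 535 bp on either side. Of 241 such H3K56ac-only regions, 32.0% were upstream, at a median of 308 bp. Shared regions had 27.8% upstream and a median of 331 bp. The H3K56ac-only regions were thus placed around starts much as the shared ones were, and the H3K27ac-only regions were more even on both sides and farther away. No test was made of these placements.

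H3K56ac-only regions lay farther from shared regions than H3K27ac-only regions did, and H3K27ac-only regions lay about as near as regions of other patterns. The nearest shared region was at a median of 3.11 kb from an H3K27ac-only region and 14.7 kb from an H3K56ac-only region, and at 4.12 kb for regions of other patterns. Distances within 1 kb were found for 34.7% of H3K27ac-only regions, 22.1% of H3K56ac-only regions and 33.6% of regions of other patterns. At gene ends the medians were 0.969 kb for H3K27ac-only regions, 14.2 kb for H3K56ac-only regions and 0.982 kb for other patterns. Distances beyond 50 kb were found for 7.75% of H3K27ac-only, 22.1% of H3K56ac-only and 12.7% of other-pattern regions. Of 1234 genes with an H3K27ac-only region in their span widened by 1 kb, 86.7% also had a shared region, and of 510 genes with an H3K56ac-only region, 60.2% did. Of all 11279 genes with a peak in any of the 4 lists, 87.5% had a shared region, so that the share in the first group was near that of all such genes. Both single-mark classes were present in 44 genes. Within 1 kb of their own ends, 1.63% of all genes had an H3K27ac-only region, 1.26% an H3K56ac-only region and 40.2% a shared region.

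The 10 genes with the most H3K27ac-only sequence, of differing function, were also marked by H3K56ac over part of their length. They were chosen by sequence that H3K27ac covers and H3K56ac does not, so that their longer H3K27ac is a description and is partly fixed by that choice. Of all 21883 protein-coding genes, 5.64% had an H3K27ac-only region in their span widened by 1 kb. Values from here on are covered lengths, the bases of a gene's widened span that lie in peaks of a list. Rapgef1, an exchange factor for the GTPase Rap1, carried 14 H3K27ac-only regions, with 34.1 and 21.1 kb covered by H3K27ac and 11.9 and 13.1 kb by H3K56ac. Swap70, which binds phosphoinositides and helps B cells move, had 11 such regions, with 32.5 and 17.8 kb for H3K27ac and 8.87 and 11.2 kb for H3K56ac. In both genes the lowest H3K27ac value lies above the highest H3K56ac value.

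Ikzf1 had 50.1 and 33.7 kb under H3K27ac and 21.7 and 22.0 kb under H3K56ac. Foxp1, a forkhead factor needed for B cell development and altered in lymphoma, had 106.1 and 71.3 kb under H3K27ac and 56.7 and 64.3 kb under H3K56ac. Bcl2, the antiapoptotic gene, had 28.9 and 17.4 kb under H3K27ac and 10.3 and 11.2 kb under H3K56ac. Ptprj, Ccdc88c, Fam53b, Irak2 and Cacna1e complete the 10. Among genes of 20 kb or less, Sh3gl1 had 7.63 and 7.92 kb under H3K27ac and 2.47 and 3.50 kb under H3K56ac. Smim5, Vps51, Rac2 and Bhlhe41 followed. Rac2, a GTPase of blood cells, had 8.25 and 6.66 kb under H3K27ac and 3.99 and 3.76 kb under H3K56ac.

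Shared sequence was found in the widened span of 45.1% of all genes, and Foxp1 had the most of it. It was followed by Rftn1, the lipid raft protein raftlin of B cells, with 63.1 and 49.6 kb under H3K27ac and 45.3 and 46.8 kb under H3K56ac. Nfatc1 had 59.3 and 51.0 kb under H3K27ac and 45.5 and 48.6 kb under H3K56ac. Sh3bp5, which binds the kinase Btk, had 53.6 and 42.9 kb under H3K27ac and 30.8 and 33.1 kb under H3K56ac. All of these were longer under H3K27ac in both lists, as most genes with more than 4 kb were. Prkce, the epsilon form of protein kinase C, had 42.2 and 35.8 kb under H3K27ac and 36.7 and 37.2 kb under H3K56ac, which overlap. Zbtb20, a zinc finger repressor, had 47.2 and 27.3 kb under H3K27ac and 24.8 and 26.4 kb under H3K56ac in LPD. In wild-type B cells it had 2.51 and 2.75 kb under H3K27ac and 1.54 and 1.49 kb under H3K56ac.

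H3K56ac-only sequence was scarcer, and the genes that held most of it fell into 2 kinds. Of all genes, 2.33% had such a region in the widened span. Some had no H3K27ac peak at all. Card10 had 0 and 0 kb under H3K27ac and 0.750 and 0.612 kb under H3K56ac. Ripply3, a transcriptional corepressor of development, had 0 and 0 kb under H3K27ac and 0.573 and 1.04 kb under H3K56ac. Bmpr2 had 0 and 0 kb under H3K27ac and 0.384 and 0.616 kb under H3K56ac. These are short stretches, in 1 H3K56ac-only region at Card10 and in 2 each at Ripply3 and Bmpr2.

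The others carried both marks and had H3K56ac-only regions besides. Pdzd2, which encodes a multi-PDZ protein, had 0.780 and 0.265 kb under H3K27ac and 2.14 and 2.26 kb under H3K56ac. Antxr1, an anthrax toxin receptor, had 2.15 and 1.96 kb under H3K27ac and 2.83 and 3.36 kb under H3K56ac. Abcg1, a cholesterol exporter, had 6.16 and 3.897 kb under H3K27ac and 7.18 and 7.21 kb under H3K56ac. All 3 were longer under H3K56ac in both lists, which their choice by H3K56ac-only sequence favours. Cyrib, a Rac1-binding protein, had the opposite order despite its H3K56ac-only regions, with 19.1 and 14.0 kb under H3K27ac and 11.85 and 12.05 kb under H3K56ac. Arid1b, a subunit of the BAF remodelling complex, had 10.6 and 7.92 kb under H3K27ac and 9.99 and 11.5 kb under H3K56ac, so that the marks overlapped. Plec and Prkce complete this group.

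Among short genes, the H3K56ac-only region over the Fkbp1b start also reaches the neighbouring gene Wdcp, so that both genes draw on the same peak. Fkbp1b had 0 and 0 kb under H3K27ac and 0.757 and 0.439 kb under H3K56ac. Exoc3l4 and Pld2 were likewise at 0 under H3K27ac, with 0.671 and 0.646 kb and 0.452 and 0.930 kb under H3K56ac. The acetyltransferase genes themselves did not separate the marks. Crebbp had 1.69 and 1.56 kb under H3K27ac and 1.64 and 1.69 kb under H3K56ac, and Ep300 had 2.18 and 2.12 kb under H3K27ac and 2.09 and 2.49 kb under H3K56ac. The sources used here do not give the deleted part of Crebbp, so these values do not check the genotype.

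**Figure D2:**
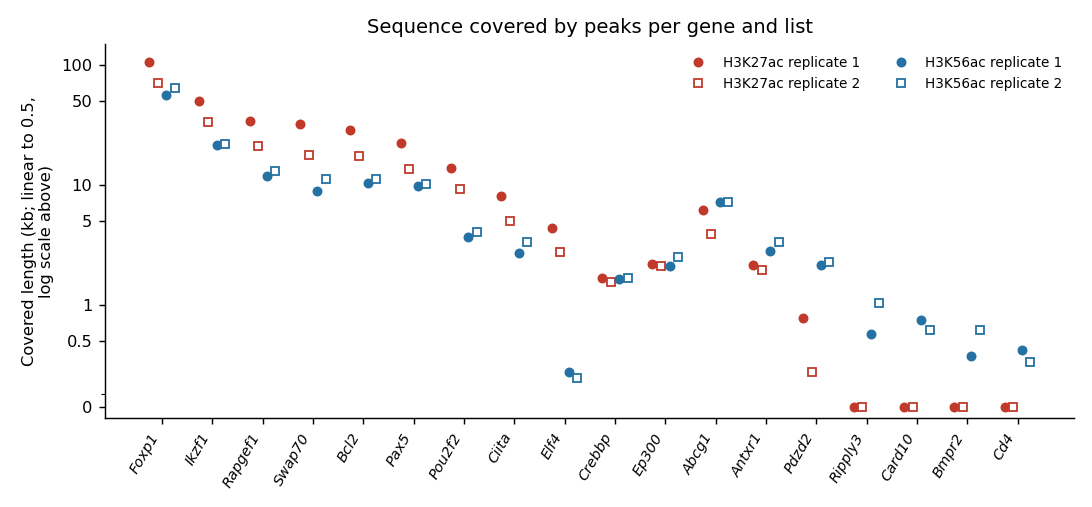
Covered length in kb per gene in the 2 H3K27ac lists (red) and the 2 H3K56ac lists (blue) of LPD, replicate 1 as circles and replicate 2 as open squares, on an axis that is linear to 0.5 kb and logarithmic above. Foxp1 to Elf4 lie higher under H3K27ac in both lists, Crebbp and Ep300 overlap, and Ripply3, Card10, Bmpr2 and Cd4 are at 0 under H3K27ac.

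Each gene with a peak in any LPD list was next placed by whether both lists of a mark were longer than both of the other. Of 11279 such genes, 26.4% had longer H3K27ac and 13.3% longer H3K56ac. This split depended on how much of a gene was covered. Longer H3K27ac was found in 15.3% of 5096 genes with a mean of up to 1 kb over the 4 lists, in 47.3% of 1527 genes with 2 to 4 kb and in 74.6% of 701 genes with more than 4 kb. Longer H3K56ac was found in 20.3, 2.49 and 1.14% of the same genes. When each length was taken as a share of its list's whole covered sequence, 14.4% of genes were longer for H3K27ac and 44.4% for H3K56ac, so the overall direction turns with the scaling. Single lists moved the split in both directions: without H3K27ac replicate 1, 27.5% of genes were longer for H3K27ac and 47.3% for H3K56ac, and without H3K27ac replicate 2, 68.5 and 13.9%. With 3 lists the rule is easier to meet.

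B cell identity genes stood on the H3K27ac side. Of 23 with a peak, 21 had longer H3K27ac (91.3%) and 1 longer H3K56ac, and all 13 with a mean above 4 kb were among the 21. Of all genes with a mean above 4 kb, 74.6% had longer H3K27ac. As shares of the list's sequence 16 of 23 still had longer H3K27ac, and without H3K27ac replicate 1 the count was 21. Together these genes took 0.686 and 0.666% of all covered sequence in the H3K27ac lists and 0.488 and 0.505% in the H3K56ac lists. Of 23 members, 13 had an H3K27ac-only region in the widened span or as the nearest gene end within 50 kb, and 0 had an H3K56ac-only region. The shares of all genes were 6.64 and 3.05%. That base counts 21883 genes, of which 11279 had a peak, while all 23 members had one. It is therefore a low base for this list and for the lists below.

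Pou2f2, which encodes the octamer factor Oct-2, had 13.8 and 9.18 kb under H3K27ac and 3.66 and 4.07 kb under H3K56ac. Pax5, the master regulator of B cell commitment, had 22.4 and 13.6 kb under H3K27ac and 9.82 and 10.2 kb under H3K56ac. Cd79a, the signalling chain of the B cell receptor, had 3.33 and 2.26 kb under H3K27ac and 0.739 and 0.666 kb under H3K56ac. Each lay above in both H3K27ac lists. Fcer2a was at 0 under H3K56ac in both lists and at 1.19 and 0.534 kb under H3K27ac. The exceptions were Cd72, with overlapping lengths, and Cr2, the complement receptor, with 0.316 and 0 kb under H3K27ac and 0.322 and 0.322 kb under H3K56ac.

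B cell receptor signalling genes were similar, with longer H3K27ac in 15 of 18 and longer H3K56ac in 0. Above a mean of 4 kb, 10 of 11 had longer H3K27ac, against 74.6% of all such genes. H3K27ac-only regions were found at 12 members and H3K56ac-only regions at 1, against the 6.64 and 3.05% of all genes, with or without a peak. As shares of the list's sequence, 12 of 18 had longer H3K27ac. Prkcb, the kinase that links the receptor to NF-kB, had 20.4 and 11.99 kb under H3K27ac and 6.52 and 7.77 kb under H3K56ac. Ptpn6, the phosphatase SHP-1, had 9.31 and 6.32 kb under H3K27ac and 1.62 and 2.57 kb under H3K56ac. Lymphoma oncogenes and suppressors had longer H3K27ac in 18 of 24 and longer H3K56ac in 0. Above a mean of 4 kb, 11 of 14 had longer H3K27ac, near the 74.6% of all such genes. Of that list, 11 had an H3K27ac-only and 4 an H3K56ac-only region, and Dnmt3a, the DNA methyltransferase, had both, with 8.00 and 6.53 kb under H3K27ac and 3.62 and 3.67 kb under H3K56ac.

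Over all members, NF-kB pathway and class II presentation genes lay between. Longer H3K27ac was found in 10 of 18 NF-kB genes and 7 of 15 class II genes, and longer H3K56ac in 0 of either. Above a 4 kb mean, 6 of 8 NF-kB and 3 of 7 class II genes had longer H3K27ac, against 74.6% of all such genes. At that length NF-kB genes lay near genes at large and class II genes below them. Ciita, the master activator of the class II genes, had 8.03 and 5.01 kb under H3K27ac and 2.71 and 3.34 kb under H3K56ac. Cd74, the invariant chain, H2-Aa and H2-Eb1 had overlapping lengths. The class II list as a whole took 0.265 and 0.284% of the sequence in the H3K27ac lists and 0.290 and 0.277% in the H3K56ac lists, which overlap.

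Most genes in the following lists had the marks over overlapping lengths. Longer H3K27ac was found in 7 of 20 housekeeping genes and longer H3K56ac in 0. Among 26 cytosolic ribosomal protein genes, all with a shared region, 4 had longer H3K27ac and 1 longer H3K56ac. The count for H3K27ac was 23 when H3K27ac replicate 2 was left out, and 1 when lengths were scaled to each list. Cell division genes had longer H3K27ac in 5 of 23, and DNA damage and p53 genes in 7 of 24. Genes of H3K56ac handling and nucleosome assembly had it in 3 of 14. All were near the 26.4% of genes of any covered length. Of cell division genes with a mean of up to 1 kb it was 3 of 15, against 15.3% of all such genes. With 1 to 2 kb it was 4 of 15 DNA damage and 1 of 7 H3K56ac handling genes, against 24.0%. In cAMP response and immediate early genes, longer H3K27ac was found in 5 of 21. The list also holds Creb1, Crtc2 and Crtc3, so it is not only a list of targets of the CBP partner CREB. With a mean of 2 to 4 kb, 2 of 10 had longer H3K27ac, against 47.3% of all such genes. Above 4 kb it was 2 of 3, against 74.6%. H3K27ac-only regions were found at 2 members and H3K56ac-only regions at 5, against 6.64 and 3.05% of all genes, with or without a peak. Within the widened span alone, without the nearest gene within 50 kb, it was 2 members for each. Nr4a1, an orphan nuclear receptor, had 5.64 and 5.03 kb under H3K27ac and 5.51 and 6.37 kb under H3K56ac, which overlap.

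Some genes outside the B cell lists carried 1 mark over more of their length, or alone. Slc4a1, the band 3 anion exchanger of red cells, had 2.54 and 2.07 kb under H3K27ac and 0.369 and 0.861 kb under H3K56ac, and no peak of either mark in wild-type B cells. Gfi1b, an erythroid and megakaryocyte repressor, had 0.587 and 0.294 kb under H3K27ac and 0 and 0 kb under H3K56ac. The 15 erythroid and megakaryocyte genes together covered 11.1 and 5.42 kb under H3K27ac and 3.19 and 4.85 kb under H3K56ac. Cd4, the T helper coreceptor, had 0 and 0 kb under H3K27ac and 0.429 and 0.343 kb under H3K56ac. Tyms, thymidylate synthase, had 0 and 0 kb under H3K27ac and 0.468 and 0.269 kb under H3K56ac. Neither Cd4 nor Tyms had a peak in the H3K18ac lists of LPD. Trim58 had 1.57 and 0.530 kb and Hemgn, another erythroid gene, 0.853 and 0.237 kb under H3K27ac, and both were at 0 under H3K56ac. The part of other cell types in these values was not tested.

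**Figure D3:**
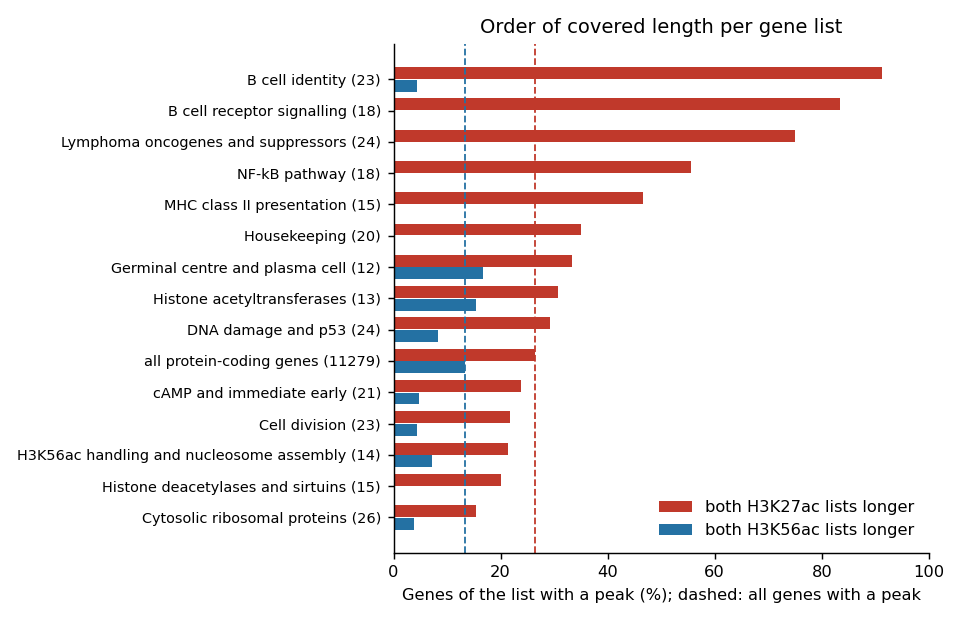
For each gene list with at least 10 members under a peak (number in brackets), the percentage of those members with both H3K27ac lists longer than both H3K56ac lists (red) and the reverse (blue). Dashed lines show the 26.4 and 13.3% of all genes with a peak, whatever their covered length. B cell identity leads with 21 of 23 and cytosolic ribosomal proteins come last with 4 of 26.

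Lists that the rule did not use set the shared class apart from both single-mark classes. H3K18ac in LPD was present at 73.3 and 49.7% of H3K27ac-only regions, 72.3 and 60.2% of H3K56ac-only regions and 98.6 and 94.6% of shared regions. Both H3K18ac lists had a peak at 46.5% of H3K27ac-only regions (44.3 to 48.6%) and at 57.3% of H3K56ac-only regions (53.7 to 60.9%). Over all regions the share was 68.2%, and over regions of other patterns 41.1%. The order of the single-mark classes turned when an H3K56ac list was left out, with 53.4% of H3K27ac-only and 47.5% of H3K56ac-only regions without H3K56ac replicate 1, and 55.3 and 49.3% without H3K56ac replicate 2. Without H3K27ac replicate 2 the H3K27ac-only share was 29.4%. Neither H3K18ac list had a peak at 23.4, 24.8 and 1.19% of the 3 classes. Over all widths and places, the 2 single-mark classes lay closer to each other than to the shared class. The list-to-list difference within the H3K27ac-only class was larger than the difference between the 2 classes. At 300 to 500 bp, H3K18ac was present at 71.7 and 47.7% of H3K27ac-only, 73.1 and 59.4% of H3K56ac-only and 94.5 and 81.3% of shared regions. Away from gene ends the shares were 74.2 and 51.3%, 81.8 and 70.5%, and 99.0 and 95.8%. The gaps between classes thus varied with width and place.

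In wild-type B cells, H3K27ac peaks overlapped 48.4 and 47.6% of the LPD H3K27ac-only regions, 33.5 and 29.8% of the H3K56ac-only regions and 82.9 and 82.5% of the shared regions. They overlapped 62.0 and 61.2% of all regions and 41.0 and 39.8% of regions of other patterns. H3K56ac peaks of B cells overlapped 10.5 and 8.07% of H3K27ac-only, 28.6 and 24.0% of H3K56ac-only and 68.9 and 65.9% of shared regions, with 41.0 and 38.3% of all regions and 13.3 and 10.9% of other patterns. For each mark, the class named after it had the higher share of the 2, in both lists. At 300 to 500 bp the same order was found, with 44.4 and 43.2% of H3K27ac-only and 31.3 and 26.7% of H3K56ac-only regions for B cell H3K27ac, and 9.06 and 6.67% and 29.9 and 23.9% of the same classes for B cell H3K56ac. Shared regions, which are wider as a class, had lower shares at that width, with 70.9 and 69.9% for B cell H3K27ac. For B cell H3K56ac they had 49.1 and 44.8%. A preference for H3K27ac was found in B cells more often than one for H3K56ac, both in the class named after it and over all regions. The B cell lists held 30523 and 30198 H3K27ac peaks and 20392 and 18763 H3K56ac peaks. Of 2155 H3K27ac-only regions, 691 (32.1%) had H3K27ac in both B cell lists and H3K56ac in neither, and 1 had the reverse. H3K27ac only was the B cell state of 17.2% of all regions and 23.1% of other patterns. Of 759 H3K56ac-only regions, 21 (2.77%) had H3K56ac only in B cells, 58 (7.64%) had H3K27ac only and 111 (14.6%) had both. H3K56ac only was the state of 0.379% of all regions and 0.422% of other patterns, and both marks that of 34.4 and 7.37%. Each preference was thus more frequent in the class named after it than over all regions. Neither mark was present in B cells at 48.1, 53.8 and 14.99% of the 3 classes, against 34.4% of all regions and 54.2% of other patterns.

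CBP and progenitor peaks were less frequent at single-mark regions than at shared regions. The single CBP list of wild-type B cells, which holds 1000 peaks, overlapped 21 H3K27ac-only regions (0.974%), 0 of 759 H3K56ac-only regions and 731 shared regions (4.24%). It overlapped 2.43% of all regions and 0.654% of regions of other patterns. A count of 0 of 759 allows a share of up to 0.395%, taking 3 counts as the limit, and the exact binomial 95% interval reaches 0.485%. Among regions of 300 to 500 bp the shares were 0.313, 0 and 1.61%, with 0.822% over all regions and 0.714% over other patterns. H3K27ac peaks of Crebbp-null lymphoid progenitors overlapped 4.41% of H3K27ac-only, 9.88% of H3K56ac-only and 50.6% of shared regions, and those of wild-type progenitors 8.86, 14.8 and 60.9%. In the same order of genotypes they overlapped 27.6 and 35.0% of all regions and 4.97 and 9.53% of other patterns. The H3K56ac-only shares thus lay above those of other patterns. At 300 to 500 bp, Crebbp-null progenitor peaks overlapped 3.96% of H3K27ac-only, 10.7% of H3K56ac-only and 24.6% of shared regions. Wild-type progenitor peaks overlapped 7.29, 15.3 and 39.6% of the same classes at that width. Progenitors had 1 list per genotype, so these shares have no replicate check.

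**Figure D4:**
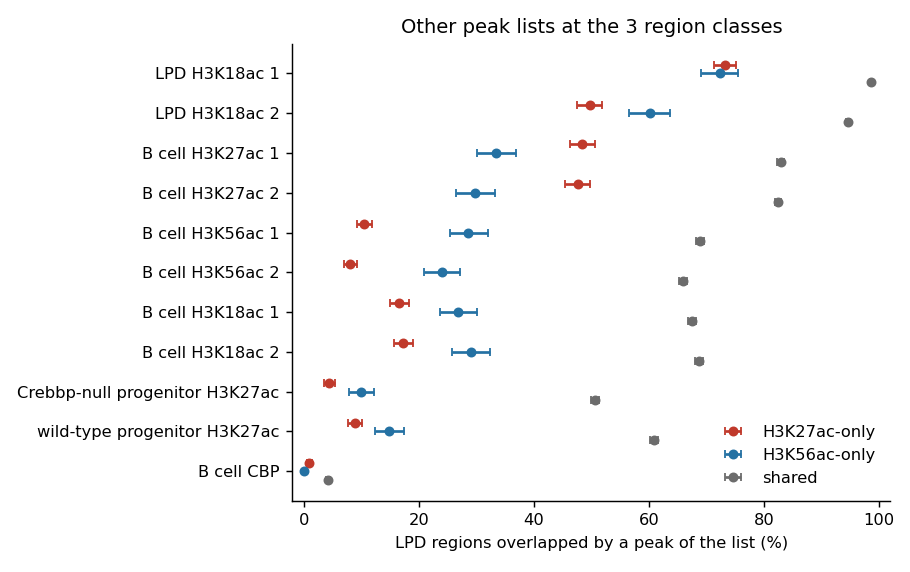
The percentage of H3K27ac-only (red), H3K56ac-only (blue) and shared (grey) LPD regions of all widths that a peak of each other list overlaps, with exact binomial 95% intervals. Shared regions lie to the right in every list; B cell H3K27ac favours the H3K27ac-only class (48.4 and 47.6% against 33.5 and 29.8%) and B cell H3K56ac the H3K56ac-only class.

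The classes were spread unevenly over 3 chromosomes. On chromosome X, 69 of 641 regions were H3K27ac-only (10.8%, exact binomial 95% interval 8.47 to 13.4%) and 1 was H3K56ac-only (0.156%). H3K56ac-only regions made up 85 of 2029 regions on chromosome 15 (4.19%, 3.36 to 5.15%) and 91 of 2091 on chromosome 17 (4.35%, 3.52 to 5.32%). Over the other 17 chromosomes the H3K27ac-only share ran between 4.66 and 7.89% and the H3K56ac-only share between 1.44 and 2.90%. These 3 chromosomes were singled out after their values were seen.

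Whole lists showed the same for X in both tissues. In LPD, X held 1.97 and 1.77% of H3K27ac peaks and 1.42 and 1.43% of H3K56ac peaks, and in B cells 2.24 and 2.17% of H3K27ac and 1.26 and 1.22% of H3K56ac peaks. The marks did not overlap in either tissue (exact permutation p = 0.333, the smallest possible). On X, Elf4 had 4.38 and 2.78 kb under H3K27ac and 0.268 and 0.221 kb under H3K56ac. Mid1ip1, a regulator of lipid synthesis, had 1.69 and 0.954 kb under H3K27ac and 0 and 0 kb under H3K56ac. Msn, the membrane linker moesin, had 6.76 and 3.30 kb under H3K27ac and 1.58 and 1.78 kb under H3K56ac.

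Chromosomes 15 and 17 differed between the tissues. Chromosome 15 held 5.31 and 6.00% of H3K27ac and 6.51 and 6.36% of H3K56ac peaks in LPD, and between 4.26 and 4.33% in the B cell lists of both marks. Chromosome 17 held 5.67 and 6.19% of H3K27ac and 6.58 and 6.31% of H3K56ac peaks in LPD, and between 4.798 and 4.992% in B cells. The H3K18ac lists of LPD were as high, at 5.67 and 6.66% on chromosome 15 and 5.91 and 6.66% on chromosome 17. On chromosome 15, Pdzd2, Cyrib, Card10, Plec, Otulinl and Dap held the most H3K56ac-only sequence, and on chromosome 17 Arid1b, Prkce, Abcg1 and Rgmb were among the first. Of the 10 genes with the most H3K56ac-only sequence in the genome, 7 lie on these chromosomes, which were singled out by the same class. Chromosomes 15 and 17 hold 85 and 91 of all 759 H3K56ac-only regions, and 2029 and 2091 of all 34829 regions. The cause of the imbalance was not tested.

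**Figure D5:**
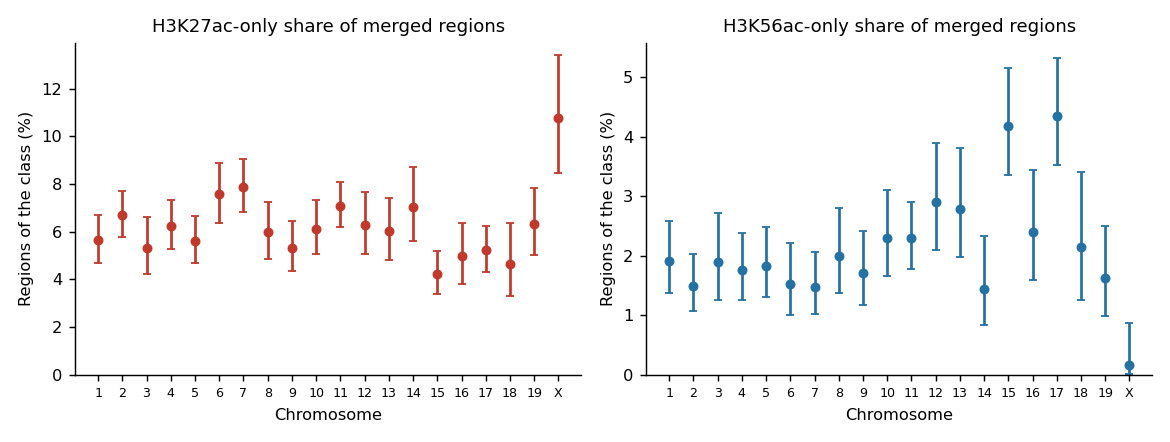
The percentage of merged LPD regions on each chromosome that were H3K27ac-only (left) and H3K56ac-only (right), with exact binomial 95% intervals. Chromosome X stands highest at left (10.8%) and lowest at right (0.156%), and chromosomes 15 and 17 stand highest at right (4.19 and 4.35%).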

How the data were processed

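Chromatin immunoprecipitation with sequencing of Crebbp-null LPD gave 2 peak lists each for H3K27ac and H3K56ac, and 11 further lists served as readouts. The submitters' processing notes name Bowtie2 2.1.0, Picard and bedtools, MACS2 2.0.10, and the build mm10; settings are not given in the sources used here. Each deposited list holds peak positions of 1 library, with no score, height or count, so depth is unknown and peak number and covered length are given in its place. The other 15 samples (RNA-seq and an input) were not used here.

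Everything else was computed with Python 3.11.15, NumPy 2.4.6, pandas 2.3.3, SciPy 1.17.1 and Matplotlib 3.10.9. The peaks of the 4 LPD lists were merged where they share at least 1 bp, and a list holds a region that it overlaps by at least 1 bp. Genes are 21883 protein-coding genes of RefSeq GRCm38.p6, which is mm10. Starts, strands and promoter sequences came from RefSeq promoters of 17491 of them, taken up after the files had been read. Regions went to all genes that they overlap, counting 1 kb on either side, and otherwise to the nearest gene end within 50 kb. A long gene therefore collects more regions. Lists were compared by exact two-sided permutation tests over the 4 lists. Shares of regions have exact binomial 95% intervals and no test, since regions of 1 library are not replicates. Of 364 entries in 19 gene lists, 363 matched.

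Named genes are Crebbp and Ep300, the 10 genes with the most sequence of each single-mark class and 8 of the shared class, the genes at the 5 widest regions per class, up to 3 members per gene list and class, 5 short genes per single-mark class and those with promoters; not all are printed. Cd79a, Cd72, Cr2, Cd74, Ptpn6, Mid1ip1, Msn, Otulinl and Dap were named after their values were seen. Members and lists were chosen with earlier results of these data known. The class code was run on simulated lists with planted single-mark regions. A planted region had no peak of the other mark, so that a call of the opposite class was not possible. The run checks the code, and no rate of false calls is given here. Whether equal replicate numbers pair the marks is not known. Replicate differences of covered length correlated at -0.0868 and those of presence at -0.00711. With 2 libraries per mark these values cannot decide it. Alternatives were a width minimum, equal list lengths, 25% coverage, merging over gaps, a 2.5 kb window, leaving out each list and, added after the data were seen, leaving out chromosomes 15, 17 and X and scaling lengths to each list.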

Additional observations from a re-analysis of the deposited data

How the results depend on the processing

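Of 188 alternative values, 101 stayed on the side and within the range of the reported one, 86 moved and 1 reversed. The log2 ratio of peak number was -0.051 without H3K27ac replicate 1, against 0.054 as reported, and lay between -0.051 and 0.16 with single lists left out. With single lists left out, the H3K27ac-only count lay between 2925 and 9068, the H3K56ac-only count between 866 and 2425 and the shared count between 18054 and 19378, and the log2 ratio of the first to the second between 0.55 and 3.39. Fewer lists make each rule easier to meet.

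Left-out lists gave gene-end shares of 13.2 to 15.7% for H3K27ac-only, 27.9 to 32.8% for H3K56ac-only and 50.5 to 51.5% for shared regions, median widths of 269 to 490, 250 to 374 and 763 to 927 bp, and shares with both H3K18ac lists of 29.4 to 55.3, 47.5 to 64.7 and 92.6 to 93.9%. The order of the 3 gene-end shares was the same in each of these ranges.

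With peaks of at least 500 bp, there were 1346 H3K27ac-only, 274 H3K56ac-only and 8651 shared regions (log2 ratio 2.30), gene-end shares of 21.7, 53.3 and 62.3%, median widths of 939.5, 673.5 and 1383 bp, and H3K18ac shares of 87.7, 90.1 and 99.5%. Merging across gaps of up to 500 bp gave 1150 H3K27ac-only regions, gene-end shares of 11.1, 26.99 and 54.4%, widths of 633, 399 and 1384 bp, and H3K18ac shares of 48.7% for H3K27ac-only and 95.8% for shared regions. A 2.5 kb window gave gene-end shares of 22.9, 39.4 and 57.9%. Lists of equal length gave widths of 494, 374 and 997 bp and H3K18ac shares of 50.8% for H3K27ac-only and 94.9% for shared regions. Requiring 25% coverage gave 487 and 963 bp for H3K27ac-only and shared regions, an H3K18ac share of 49.7% for H3K27ac-only regions, and a gene-end share of 54.1% for shared regions. Without chromosomes 15, 17 and X, an alternative chosen after seeing the data, the shared gene-end share was 54.0%.

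Gene list members at their own ends numbered 10 with H3K27ac-only and 5 with H3K56ac-only regions, and 9 had an H3K56ac-only region in the widened span alone. Genes with longer H3K27ac numbered 1628 when lengths were scaled to the list and between 3043 and 7714 with a list left out. Those with longer H3K56ac numbered 5006 when scaled, 964 with peaks of at least 500 bp and between 1568 and 5228 with a list left out. Ribosomal protein genes with longer H3K27ac numbered 1 when scaled and between 4 and 23 with a list left out; B cell identity genes numbered between 16 and 22 throughout. The cause of these shifts was not tested.

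With the replicate number as a replicate block, the exact sign-flip p was 1 for peak number and covered length and 0.5, the smallest possible, for width and gene-end share, and no call changed. Without read depth, weak peaks missed in a list cannot be told from absent ones.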
